A study of Mus musculus with 18 samples.

Results

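A partially reprogrammed mouse cell clone was set against 5 established induced pluripotent stem cell (iPSC) clones. The 3 arrays of the partial clone and the 5 arrays of the established clones were chosen by their titles, and they are 8 of the 18 arrays of the series. RNA was hybridised to Affymetrix mouse expression arrays, 1 array per sample. The partial clone had been made with the factors OCK (Oct4, c-Myc and Klf4) from cells wild type for Tcf3, and was collected on day 2 with an siRNA against Tcf3 (siTcf3-A or siTcf3-B, 1 array each) or with a control siRNA (siCtrl, 1 array). Tcf3 is the older name of Tcf7l1, a transcription factor of the Wnt pathway that keeps its targets repressed in embryonic stem cells. The established clones were 2 OCK clones and 2 clones made with OSK (Oct4, Sox2 and Klf4), all 4 with Tcf3 knocked out (ko), and 1 OSK clone wild type (wt) for Tcf3. The labels give no siRNA for them. Values are log2 signal after RMA, which corrects background, normalizes between arrays and summarises the probes of a probe set. They are listed here in the order siTcf3-A, siTcf3-B and siCtrl for the partial clone, and OCK ko 1, OCK ko 2, OSK ko 1, OSK ko 2 and OSK wt for the established clones. No deposited value lies below 5.64, the log2 of 50, so a value of 5.64 is an upper limit and is called the floor.

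Reprogramming factors silence the genes of the starting cell and switch on an endogenous network of transcription factors around Oct4, Sox2 and Nanog. Cells of a partial clone form colonies and proliferate without having switched on that whole network, and they usually depend on the introduced factors. Cells of mouse iPSC clones express the naive pluripotency factors, such as Esrrb, Zfp42 and Tfcp2l1, that mark the inner cell mass of the embryo.

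The arrays fell into their labelled classes. Pearson's correlation over probe sets was 0.992 to 0.996 between the 3 partial arrays, 0.979 to 0.998 between the 5 established arrays and 0.887 to 0.913 between partial and established arrays, and no pair of arrays was identical. All 3 partial arrays come from a single clone, all were treated with siRNA, and the labels put them in an overall design of their own. Clone, siRNA treatment and design set therefore cannot be told apart from the partial state. Tcf3 genotype is largely mixed with it too. The partial clone was made from wild type cells, OSK wt is the only established clone of that genotype, and no established OCK clone has it. Y-linked genes, described below, were detected on the partial arrays and on none of the 5 established arrays. Sex-chromosome content therefore cannot be told apart from the partial state either. The labels do not say whether the arrays of the partial clone were separate cultures, and p-values reflect only how these 8 arrays vary, which may be technical spread.

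The 6 marker genes of pluripotent cells, Pou5f1, Nanog, Sox2, Zfp42, Esrrb and Dppa5a, were above the floor on all 5 established arrays. Their summed linear signal was 8960 to 9720 on the partial arrays and 43900 to 52900 on the established arrays. Of the 8 markers of fibroblasts or feeder cells, 0 were at the floor on all partial arrays, and their summed signal was 10200 to 13500 on the partial arrays and 910 to 3370 on the established arrays. Markers of other cell types were mixed. Of the 3 endothelial markers Cdh5 and Tie1 were at the floor on all 8 arrays, while Tek had 9.94, 9.80 and 10.25 on the partial arrays, against 7.45 to 8.72 on the established arrays, and the summed signal was 989 to 1320 on the partial and 275 to 521 on the established arrays. Of the 4 macrophage markers Ptprc and Adgre1 were at the floor throughout, while Lyz2 had 6.59, 6.18 and 7.05 on the partial arrays and was at the floor on the established arrays, and the sum was 237 to 298 on the partial and 200 to 217 on the established arrays. Of the 3 muscle markers Myod1 and Myog were at the floor throughout, and the sum, set by Des, was 213 to 223 on the partial and 263 to 364 on the established arrays. The summed signal of 4 primitive endoderm markers was 1240 to 1710 on the partial and 230 to 355 on the established arrays. On the partial arrays that sum was set by Gata6, while Gata4, Sox17 and Sox7 overlapped between the groups. The sum of 4 neural markers was 2020 to 2100 on the partial and 600 to 1240 on the established arrays. On the partial arrays it came mostly from Sox1. Pax6 was also higher on every partial array than on every established array. Tubb3 went the other way in all array pairs, and Olig2 was at the floor on all partial arrays. For 4 trophoblast markers the sum was 212 to 280 on the partial and 226 to 376 on the established arrays. For 3 keratinocyte markers it was 202 to 282 and 162 to 194. The part of other cell types in the results was not tested.

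Tcf7l1 itself had 8.80, 8.77 and 9.93 on the partial arrays, against 9.45, 9.56, 9.49, 9.37 and 10.68 on the established arrays. The 4 ko clones kept a signal well above the floor, so this probe set does not tell the knockout by absence of signal, and it may lie outside the deleted part, which the labels do not describe. Within the partial clone both siTcf3 arrays lay below the siCtrl array, and the same order was seen with a second probe set of the gene, at 7.79, 7.56 and 9.86. The difference of siTcf3 from siCtrl was -1.15 (limma, adjusted p = 0.767). The fit holds OSK wt and the 4 ko clones in 1 group, so their distance in this gene adds to the spread behind that p-value. It is therefore no measure of the spread between the siRNA arrays alone. Against the established mean, siTcf3 differed by -0.93 (adjusted p = 0.0484), a call that was lost without OCK ko 2 (adjusted p = 0.0661), OSK ko 1 (adjusted p = 0.0602), siTcf3-A (adjusted p = 0.171) or siTcf3-B (adjusted p = 0.182). It was also lost against the OSK arrays alone (adjusted p = 0.0519), after quantile normalization (adjusted p = 0.076) or median centring (adjusted p = 0.0726), and with the plain limma prior (adjusted p = 0.139). The siCtrl difference was 0.22 (adjusted p = 0.731), and 0.46 without OSK wt (adjusted p = 0.0197).

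Y-linked genes were detected in the partial clone and at the floor on all 5 established arrays. Eif2s3y, which encodes a translation initiation factor subunit, had 8.60, 8.83 and 8.97 on the partial arrays. Kdm5d, a histone demethylase gene, had 8.75, 8.58 and 9.04, and Uty had 7.42, 7.53 and 7.66. The labels give no sex for any clone. All 3 of the genes tested in this list of sex-linked genes were separated between the groups. Xist, the RNA that coats the inactive X chromosome, was at the floor on every array except siCtrl, where it had 6.54. Over the 434 X-linked genes tested the median difference was -0.30 for siTcf3 and -0.29 for siCtrl, against -0.06 and -0.09 over all genes. The part of the sex chromosomes in other results was not tested.

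Genes were compared in 1 limma fit of the 8 arrays, with siTcf3 (2 arrays), siCtrl (1 array) and the 5 established arrays as 3 groups. The lone siCtrl array was assumed to vary like the others. Of 13475 genes tested, 7051 (52.3%) passed an adjusted p of 0.05 for siTcf3 against established, 2992 higher (22.2%) and 4059 lower (30.1%). For siCtrl against established 6052 of 13431 genes (45.1%) passed, 2690 higher (20.0%) and 3362 lower (25.0%). Both comparisons use the same 5 established arrays. By position alone, 3330 of the 13335 genes tested in both (25.0%) were higher and 4488 (33.7%) lower on every partial array than on every established array, that is, in all 15 array pairs.

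A stricter set combined these criteria. A gene is called separated here when it passed the test in both comparisons with the same sign, differed at least 2-fold in both and differed the same way in all 15 pairs. There were 2619 separated genes among 13335 (19.6%), 1256 higher in the partial clone (9.42%) and 1363 lower (10.2%). "Rose" and "fell" are used below for separated genes. The median size of the difference was 1.86 log2 units among the genes that rose and 1.58 among those that fell. The difference reached 4 log2 units for 84 genes that rose and 52 that fell. Of the risen genes, 148 were at the floor on all 5 established arrays, and 195 of the fallen genes were at the floor on all 3 partial arrays. A fold is given as a lower bound wherever any array of the dimmer group was at the floor, and genes are ordered by differences with floored values taken as 5.64. Genes at the floor on all arrays compared were not tested, so counts over a gene list below are over its tested members only. Each such count stands beside the 9.42% that rose and the 10.2% that fell over all genes tested. A count near those shares is no result about the list. Nearest to the 2-fold limit of 1 log2 unit, Sh3bgr (1.0002 for siTcf3) and Vac14 (-1.0002 for siCtrl) lay inside it and Wdpcp (0.9997 for siTcf3) and Znrd1as (-0.9997 for siTcf3) outside it. Of the separated genes, 98 lay on X or Y and 2518 on autosomes.

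**Figure D1:**
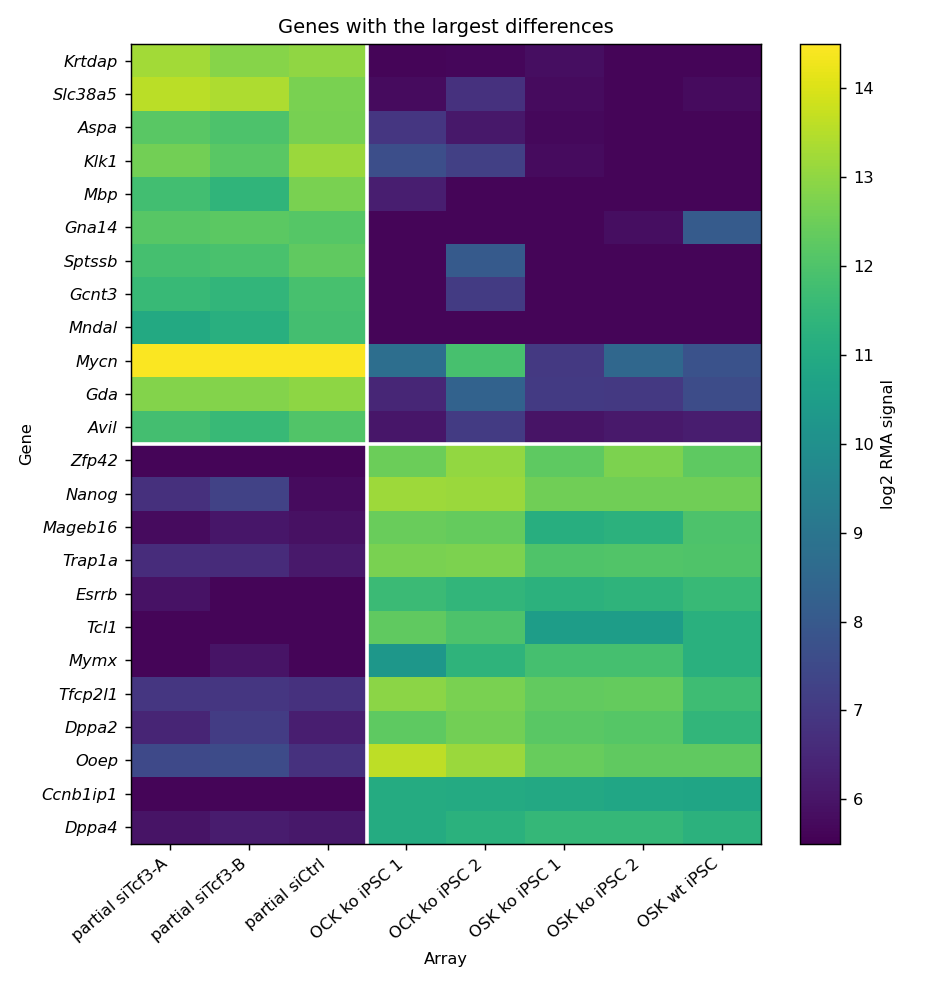
log2 RMA signal (colour) of the 12 genes with the largest positive and the 12 with the most negative difference among the separated genes (vertical axis) on the 3 partial and 5 established arrays (horizontal axis). White lines divide the groups of arrays and of genes. Zfp42, Tcl1 and Ccnb1ip1 were at the floor of 5.64 on all 3 partial arrays, and Mndal on all 5 established arrays.

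Among the 12 most negative differences were those of the pluripotency factors Zfp42, Nanog, Esrrb and Tfcp2l1. Zfp42 (Rex1), a zinc finger gene used as a marker of undifferentiated stem cells, was at 5.64 on each of the 3 partial arrays, against 12.48, 13.04, 12.28, 12.73 and 12.28 on the established arrays. It was at least 121-fold lower (limma, adjusted p = 3.07e-07 for siTcf3 and 2.23e-06 for siCtrl). Nanog, a homeodomain factor at the centre of the network, had 6.76, 7.29 and 5.78 on the partial arrays, against 13.18, 13.13, 12.56, 12.56 and 12.55 on the established arrays. The groups did not overlap, and Nanog fell 72.8-fold. Esrrb, an orphan nuclear receptor, had 5.94, 5.64 and 5.64 on the partial arrays, against 11.62, 11.42, 11.27, 11.36 and 11.55 on the established arrays, a difference of -5.70. Tfcp2l1, a factor of the naive state, had 6.94, 6.93 and 6.80, against 12.93, 12.68, 12.35, 12.38 and 11.72 in the established clones. All 3 partial arrays were at or within 2 log2 units of the floor for these genes, and for Nanog siCtrl was the lowest of them.

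The start-site regions of Nanog and Zfp42, which fell most among the factors, and of Krtdap, which had the largest positive difference, are shown because they are the promoters at both ends of the comparison. Each is 250 bases before to 50 after the start of the gene from RefSeq (GRCm38.p6), 5′ to 3′ on the strand of the gene. They were searched on both strands for the octamer ATGCAAAT bound by Oct4, for the Sox core CATTGT and for the Tcf/Lef sequence CTTTGAT or CTTTGAA, and capitals mark a match. A match is a description of letters and not a site.
Nanog, chr6:122707239-122707538, + strand: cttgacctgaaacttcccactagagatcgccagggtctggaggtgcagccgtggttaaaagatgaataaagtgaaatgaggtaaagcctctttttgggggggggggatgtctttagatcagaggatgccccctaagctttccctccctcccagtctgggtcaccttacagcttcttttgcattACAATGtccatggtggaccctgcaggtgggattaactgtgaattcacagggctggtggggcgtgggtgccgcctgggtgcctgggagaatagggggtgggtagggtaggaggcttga
Zfp42, chr8:43306960-43307259, - strand: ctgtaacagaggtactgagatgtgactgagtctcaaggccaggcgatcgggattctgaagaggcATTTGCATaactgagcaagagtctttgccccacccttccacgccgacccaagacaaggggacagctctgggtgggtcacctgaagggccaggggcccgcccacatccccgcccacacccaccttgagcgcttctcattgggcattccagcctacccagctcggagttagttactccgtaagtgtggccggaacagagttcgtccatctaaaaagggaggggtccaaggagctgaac
Krtdap, chr7:30787655-30787954, + strand: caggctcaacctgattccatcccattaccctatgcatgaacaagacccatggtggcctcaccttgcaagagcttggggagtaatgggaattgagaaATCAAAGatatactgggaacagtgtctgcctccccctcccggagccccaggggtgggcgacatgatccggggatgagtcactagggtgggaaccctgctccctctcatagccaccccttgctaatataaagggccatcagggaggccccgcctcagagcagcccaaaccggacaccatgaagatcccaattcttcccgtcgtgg

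In the Nanog window the Sox core was found on the opposite strand, in the Zfp42 window the octamer was found on the opposite strand, and in the Krtdap window a Tcf/Lef sequence was found on the opposite strand. The octamer was in 2.09% of the 957 windows of genes that rose, in 1.48% of the 1084 windows of genes that fell and in 1.43% of the 10741 windows of all genes tested. The Sox core was in 7.21%, 6.92% and 7.28% of those 3 sets of windows, and the Tcf/Lef sequence in 6.79%, 5.44% and 6.23%. The median ratio of observed to expected CpG was 0.68 in the windows of genes that rose, 0.74 in those of genes that fell and 0.75 over all genes tested.

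The other genes among the 12 most negative differences belong to early embryos, germ cells and other tissues. The germ cell and early embryo genes Dppa2 and Dppa4, which encode paired DNA-binding proteins of pluripotent cells, had 6.43, 7.10 and 6.26 and 5.97, 6.17 and 6.07 on the partial arrays, against ranges of 11.44 to 12.58 and 11.04 to 11.49 on the established arrays. Ooep, known from the oocyte, was 44.7-fold lower, and Tcl1, a coactivator of the kinase Akt, at least 50.8-fold lower. The X-linked genes Mageb16 (61.5-fold) and Trap1a (58.1-fold) fell in the same way, as did Mymx (at least 46.9-fold), a muscle cell fusion gene. Ccnb1ip1, which encodes a ubiquitin ligase of meiotic recombination, was at the floor on the 3 partial arrays, against 10.79 to 11.04 in the established clones, and was at least 38.7-fold lower.

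Core pluripotency factors did not all differ. Of the 11 core genes tested 7 fell and 1 rose, and the median difference was -2.88 for siTcf3 and -2.93 for siCtrl. Pou5f1 (Oct4), whose protein is also an introduced factor, had 12.83, 12.78 and 12.76 on the partial arrays, against 11.90, 12.35, 12.18, 11.99 and 11.93 on the established arrays. It was thus higher by 0.73 (adjusted p = 0.0026) for siTcf3 and by 0.69 (adjusted p = 0.0152) for siCtrl in limma, both below the 2-fold limit, and the array cannot tell the introduced from the endogenous copy. Against the OCK ko arrays alone, the siCtrl difference of Pou5f1 was 0.64 (adjusted p = 0.0628).

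Sox2, which was not among the factors introduced into the partial clone, had 8.60, 8.37 and 8.35 on the partial arrays, against 12.50, 12.33, 12.30, 12.42 and 12.26 on the established arrays. That is a 15.1-fold lower signal, in the OCK and the OSK clones alike. Sall4, a zinc finger partner of Oct4, had 7.32, 7.62 and 7.29, against 11.98 to 12.18 in the established clones (25.8-fold). Lin28a, an RNA-binding protein that blocks let-7 maturation, had 6.07, 6.76 and 6.19, against 8.73, 10.83, 11.62, 11.81 and 11.45, and OCK ko 1 was the lowest of the established clones. Utf1, a chromatin protein gene of undifferentiated cells, fell 7.19-fold. L1td1, an RNA-binding protein gene of the same cells, had 12.67, 12.61 and 12.64 in the partial clone, against 11.89 to 12.52 in the established clones, and did not pass the test (adjusted p = 0.269 and 0.417).

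**Figure D2:**
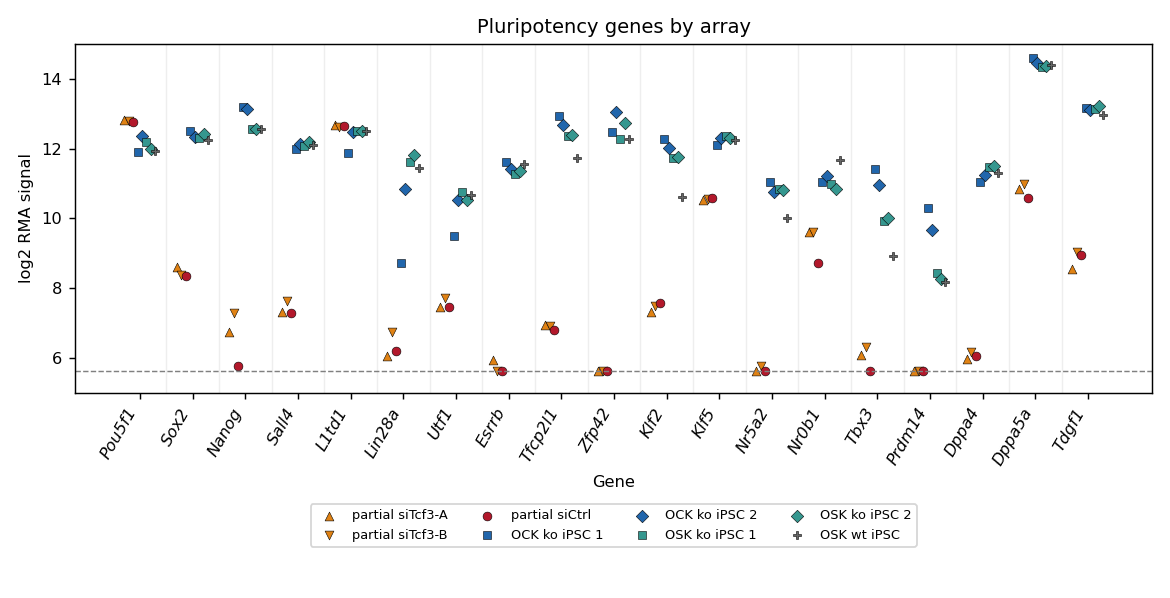
log2 RMA signal (vertical axis) of 19 pluripotency genes (horizontal axis) on each array, 1 point per array; the dashed line is the floor of 5.64. Pou5f1 and L1td1 lie higher on the 3 partial arrays than on the 5 established arrays, and the other 17 genes lie lower. The genes are a selection from the lists, so these numbers are no share of a list. Klf4 and Mycn, which rose by the probe sets used, are not among them.

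Of 13 naive pluripotency genes tested 12 fell, with a median difference of -4.04 for siTcf3 and -4.10 for siCtrl. Klf2, a Krüppel-like factor not introduced here, had 7.31, 7.48 and 7.59 on the partial arrays, against 12.28, 12.01, 11.74, 11.76 and 10.62 on the established arrays. Klf5, its relative, kept a high signal of 10.53, 10.56 and 10.59, against 12.10 to 12.37, and fell 3.27-fold. Prdm14, a repressor of lineage genes, was at the floor on all 3 partial arrays (at least 10.0-fold lower). Nr5a2, a nuclear receptor that activates Oct4, fell at least 32.3-fold. Tbx3, a T-box factor, fell at least 18.7-fold. The size of the fall thus ranged widely within the list. Nr0b1 (Dax1), an X-linked corepressor, was still detected, with 9.61, 9.60 and 8.73 against 10.83 to 11.68, and the siCtrl array was the lowest of the 8.

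Klf4, Mycn and the glycolysis gene Pfkp, described with its list, were the separated list members whose probe sets gave opposite directions. Klf4, one of the introduced factors, had 12.36, 12.32 and 12.32 on the partial arrays by the probe set used here, against 11.79, 10.94, 10.83, 10.91 and 10.69 on the established arrays. Its other probe set gave 7.83, 7.81 and 8.76 on the partial arrays, against 12.13, 11.45, 11.38, 11.47 and 11.25 on the established arrays, a difference of -3.40. With the mean of both, the difference was -1.20 for siTcf3 (limma, adjusted p = 0.00508) and -0.74 for siCtrl (adjusted p = 0.105), against 1.31 and 1.29 with the brighter probe set. The direction of Klf4 is therefore not settled by these arrays. For Mycn, a relative of c-Myc, the probe set used gave 14.45, 14.44 and 14.45, against 8.76, 11.87, 7.00, 8.52 and 7.78, a 50.7-fold difference. The 2 other probe sets of Mycn were lower in the partial clone, by -2.45 and -2.14. With the mean of its probe sets Mycn differed by 0.46 (adjusted p = 0.332) for siTcf3 and 0.16 (adjusted p = 0.827) for siCtrl. OCK ko 2 was far above the other established clones with the first probe set, and the difference is 6.43 for siTcf3 and 6.44 for siCtrl without it. Klf4 was the member of the naive list that rose and Mycn that of the core list, and both rises rest on 1 probe set.

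**Figure D3:**
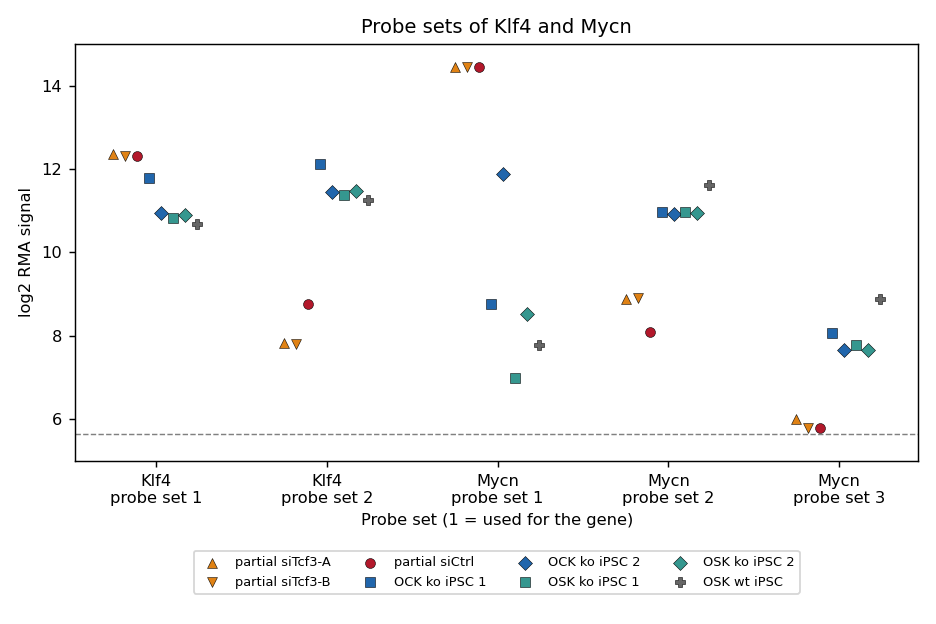
log2 RMA signal (vertical axis) of each probe set of Klf4 and Mycn (horizontal axis) on each array, 1 point per array; probe set 1 is the one used for the gene and the dashed line is the floor of 5.64. For both genes the partial arrays are the highest with probe set 1 and the lowest with every other probe set.

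Opposite probe sets were uncommon among the separated genes. Of the 1299 other probe sets of genes that rose, 696 also rose in all 15 pairs, 221 overlapped, 365 were at the floor on all 8 arrays and 17, in 15 genes, went the opposite way. Of 1081 other probe sets of genes that fell, 501 fell too, 271 overlapped, 278 were at the floor and 31, in 27 genes, went the opposite way.

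All 10 further pluripotency markers tested fell, with median differences of -3.67 and -3.86. Dppa5a, an RNA-binding protein gene of early embryos, had 10.84, 10.99 and 10.58 in the partial clone, against 14.60, 14.45, 14.34, 14.37 and 14.41 in the established clones. Tdgf1, a co-receptor for Nodal, fell 19.4-fold. Fbxo15, an Oct4 and Sox2 target whose promoter served in early reporters of reprogramming, had 8.99, 9.11 and 9.73, against 11.94 to 13.31. Both were thus detected in the partial clone below the established range. Dppa3 (Stella), which protects maternal methylation in the zygote, fell 15.7-fold, and Slc2a3, a glucose transporter gene, was at the floor in the partial clone and at least 2.99-fold lower. The siCtrl call of Slc2a3 was lost with the mean of its probe sets (adjusted p = 0.089).

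Signals that surround the network were split. Of 14 Nodal and FGF pathway genes tested 6 fell and 0 rose, with medians of -0.82 and -0.79. Nodal, the TGF-beta family ligand of the early embryo, had 8.39, 8.27 and 8.41 on the partial arrays, against 10.70, 10.87, 10.82, 10.88 and 10.21 on the established arrays. Its targets and antagonists Lefty1 (9.33-fold) and Lefty2 (at least 15.9-fold) fell with it. Fgf4, the FGF ligand of pluripotent cells, had 10.33, 10.09 and 10.28, against 11.81 to 12.53, and fell 3.47-fold. In the LIF and Stat3 list 2 of 8 genes fell and 1 rose (medians -0.31 and -0.08). Pim1, a kinase gene downstream of Stat3, fell 4.58-fold and Junb, a subunit of the AP-1 factor, had 8.72, 8.92 and 9.16 in the partial clone, against 6.14 to 7.29, and rose 4.79-fold.

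Genes of the Tcf/Lef family and the beta-catenin pathway showed 0 risen and 0 fallen genes among 11 tested, with medians of 0.01 and 0.06. In limma 1 of them was called higher and 3 lower for siTcf3, and 1 higher and 1 lower for siCtrl, without meeting the other criteria. Over all genes 22.2% were called higher and 30.1% lower for siTcf3, and 20.0% and 25.0% for siCtrl. Of 8 Wnt target genes tested 2 rose and 2 fell, with medians of 0.09 and 0.06. Axin2, a negative feedback gene of the pathway, had 6.51, 6.51 and 6.35 on the partial arrays, against 7.46, 7.80, 8.24, 8.35 and 7.16 on the established arrays (adjusted p = 0.00873 for siTcf3 and 0.0207 for siCtrl). The siTcf3 call was lost without siTcf3-A or without siTcf3-B (adjusted p = 0.0588 in each case). Notum, which encodes a secreted Wnt inhibitor, fell at least 5.40-fold. Ccnd1, cyclin D1, rose 3.33-fold. The partial clone was wild type for Tcf3 and all established clones except OSK wt were ko, and the part of that genotype in these differences was not tested.

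Myc, one of the introduced factors, rose at least 6.27-fold. It had 10.17, 10.02 and 10.04 in the partial clone, against 5.64, 8.09, 7.88, 7.82 and 7.71 in the established clones, of which OCK ko 1 was at the floor. The siTcf3 call of Myc was lost without siTcf3-A (adjusted p = 0.0538). As for Pou5f1, the array cannot tell the introduced from the endogenous copy of Myc, and the OSK clones were made without it. Sp5, a zinc finger gene that Wnt signalling activates, had 7.36, 7.74 and 6.56 in the partial clone, against 5.64, 5.73, 5.64, 5.99 and 5.64. It was higher in all 15 pairs, by 1.82 for siTcf3 and by 0.83 for siCtrl, the last below the 2-fold limit.

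Germline genes, several of which DNA methylation silences in somatic cells, were near the floor throughout the partial clone. Of 10 tested 8 fell and 0 rose, with a median difference of -2.76 in both comparisons with floored values taken as 5.64. Dazl, an RNA-binding protein gene of germ cells, was at 5.64 on all 3 partial arrays, against 11.84, 10.99, 10.45, 10.39 and 8.95 (at least 29.4-fold lower). Ddx4, a helicase gene of germ cells, was at least 10.3-fold lower. Mael, of the piRNA pathway, was at least 9.88-fold lower and Tdrd12, of the same pathway, at least 14.4-fold lower. The OSK wt clone was the lowest of the established clones for Dazl. Of 3 genes of the 2-cell embryo tested, 0 rose and 0 fell. In limma 1 was called lower for siTcf3 and 0 for siCtrl, against 30.1% and 25.0% lower over all genes.

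Chromatin regulators were lower in the partial clone in part of the lists. Of 10 genes of DNA methylation and its readers 3 fell and 1 rose (medians -0.60 and -0.46), and of 11 Polycomb genes 6 fell and 1 rose (medians -1.05 and -1.14). Tet1, a dioxygenase that oxidises 5-methylcytosine, had 6.73, 7.00 and 6.74 on the partial arrays, against 11.60, 11.62, 11.98, 12.06 and 12.03 on the established arrays. It was 32.8-fold lower, and more than 4 log2 units separated the groups. Cbx7, the Polycomb chromobox gene of stem cells, fell 13.3-fold, Jarid2, a cofactor of PRC2, fell 4.78-fold, and Suz12, a core subunit of PRC2, fell 2.85-fold. Trim28, a corepressor of retroviral elements, fell 2.19-fold and stayed well above the floor, against 13.00 to 13.23 in the established clones. Bmi1, the PRC1 gene best known for repressing Cdkn2a, rose 2.84-fold, and the methyl-CpG reader Mbd2 rose 3.60-fold.

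Imprinted genes did not move as a group. At the Dlk1-Meg3 locus, whose silencing is known from some mouse iPSC lines, 0 of 3 genes tested rose or fell (medians -1.94 and -1.49). In limma 1 was called lower for siTcf3 and 0 for siCtrl, against 30.1% and 25.0% lower over all genes. Meg3, a maternally expressed long RNA of the locus, had 8.99, 9.49 and 9.58 in the partial clone, against 9.33, 8.18, 11.09, 11.04 and 11.77 in the established clones. By the probe set used, the OSK clones were above all 3 partial arrays, while OCK ko 1 lay among them and OCK ko 2 below them. Meg3 therefore differed by -1.04 (limma, adjusted p = 0.365) for siTcf3 and -0.70 (adjusted p = 0.673) for siCtrl, and by 0.48 and 0.83 against the OCK ko arrays alone (adjusted p = 0.367 and 0.227). Against the OSK arrays alone the differences were -2.06 (adjusted p = 0.000713) and -1.72 (adjusted p = 0.00504), and with 5 groups in the fit the siTcf3 difference was -1.29 (adjusted p = 0.0124). By a second bright probe set of Meg3, OCK ko 1 had 9.67, above the partial values of 8.25, 8.59 and 8.54, and the difference was -2.07. The place of OCK ko 1 thus depends on the probe set. A dimmer probe set of Meg3 was lower in all 15 pairs, and the others overlapped. Of 11 other imprinted genes 1 rose and 1 fell (medians -0.14 and 0.00). The gene that fell was Phlda2, a placental growth regulator, at 6.97, 6.73 and 6.79 against 8.86 to 9.70.

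Epithelial genes were split. Cdh1 (E-cadherin), the adhesion gene of epithelial and pluripotent cells, had 11.81, 11.66 and 12.05 in the partial clone, against 11.70, 11.51, 11.73, 11.72 and 11.81 in the established clones. The groups overlapped, and the difference was 0.04 (limma, adjusted p = 0.787) for siTcf3 and 0.35 (adjusted p = 0.0727) for siCtrl. The siCtrl value passed after quantile normalization or median centring of the arrays (adjusted p = 0.0355 and 0.0424). The siTcf3 value changed sign without OCK ko 2 (-0.0063), without siTcf3-A (-0.038) or against the OSK arrays alone (-0.019). Of the 18 epithelial genes tested, 7 fell and 2 rose, with medians of -0.58 and -0.67. Epcam, an adhesion gene shared by epithelia and stem cells, had 8.64, 8.78 and 8.95, against 12.02, 12.03, 12.29, 12.27 and 12.39, and fell 10.7-fold. Cldn7, a tight junction gene, fell 10.8-fold and Grhl2, a regulator of epithelial genes, fell 4.85-fold. The tight junction gene Ocln rose 3.23-fold and the keratin Krt19 rose 9.19-fold.

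**Figure D4:**
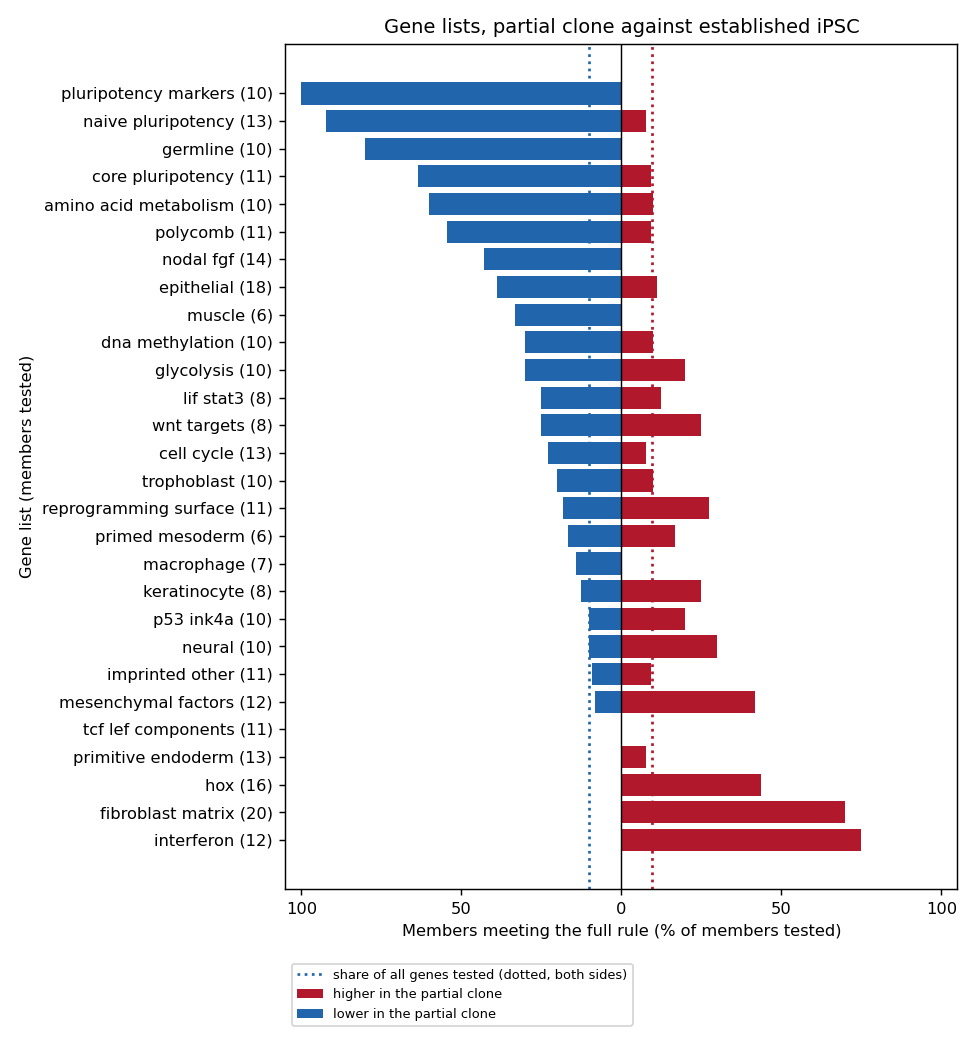
Share of tested members of each gene list that rose (right of 0) or fell (left of 0) in the partial clone, in percent; the number of members tested is in brackets, lists with under 6 tested members are left out, and dotted lines are the shares over all genes tested (9.42% risen, 10.2% fallen). All 10 tested pluripotency markers fell, and 9 of 12 interferon genes and 14 of 20 fibroblast matrix genes rose.

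The largest positive difference was in Krtdap, a secreted protein gene of differentiating keratinocytes. It had 13.25, 12.86 and 12.99 on the partial arrays, against 5.64, 5.67, 5.83, 5.64 and 5.64 on the established arrays, and rose at least 163-fold (limma, adjusted p = 1.71e-07 for siTcf3 and 1.24e-06 for siCtrl). Slc38a5, a glutamine and serine transporter gene on the X chromosome, had 13.58, 13.39 and 12.70, against 5.78, 6.80, 5.77, 5.64 and 5.75. Aspa, the aspartoacylase of oligodendrocytes, had 12.18, 11.97 and 12.66, against 5.64 to 6.92. Those genes come from unrelated tissues, and each separated the groups by 5 log2 units or more. Mbp, the myelin basic protein gene, had 11.76, 11.38 and 12.69, against 6.25 in OCK ko 1 and 5.64 in the other established clones. Klk1, a kallikrein protease gene, rose at least 76.9-fold.

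The G protein subunit gene Gna14 (at least 63.8-fold), the serine palmitoyltransferase subunit gene Sptssb (at least 59.5-fold), the mucin glycosyltransferase gene Gcnt3 (at least 51.7-fold) and the guanine deaminase gene Gda (48.4-fold) followed, with Avil, an actin-binding protein gene, at 46.1-fold. For these genes 1 established clone was often above the rest: OSK wt had 8.10 for Gna14, and OCK ko 2 had 8.06 for Sptssb, 7.07 for Gcnt3, 8.33 for Gda and 7.07 for Avil. Even these values were more than 3 log2 units below the lowest partial array. Mndal, an interferon-inducible gene of the p200 family, had 10.95, 11.18 and 11.82, and was at the floor on all 5 established arrays (at least 51.0-fold higher).

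Genes of the fibroblast matrix were higher in the partial clone. Of 20 tested 14 rose and 0 fell, with a median difference of 1.98 for siTcf3 and 2.39 for siCtrl. By limma with no fold limit, 15 were called higher and 1 lower for siTcf3, and 16 and 0 for siCtrl. Over all genes 22.2% were called higher and 30.1% lower for siTcf3, and 20.0% and 25.0% for siCtrl. Col1a2, a type I collagen gene, had 11.98, 12.19 and 12.42 on the partial arrays, against 8.39, 10.32, 9.02, 8.97 and 10.23 on the established arrays (limma, adjusted p = 0.00281 for siTcf3 and 0.00742 for siCtrl). Col5a2, of the fibrillar collagens, rose 9.91-fold and the collagen cross-linking oxidase gene Lox 8.59-fold. The proteoglycan genes Dcn and Lum had 9.12, 8.83 and 9.67 and 7.32, 7.56 and 7.82 in the partial clone, against 5.64 to 6.85 and 5.64 to 5.99 in the established clones. Among the established clones OCK ko 2 and OSK wt had the highest levels of Col1a2, Col5a2 and Lox. Fewer cells of a type and less RNA per cell cannot be told apart on these arrays, so matrix signal may come from any share of the cells, and the part of feeder cells was not tested.

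Mesenchymal transcription factors and their partners rose in 5 of 12 cases and fell in 1 (medians 0.56 and 1.05). Foxc1, a forkhead factor of mesenchyme, had 8.96, 8.92 and 8.82, against 5.73, 5.64, 5.64 and 5.88 in the established clones other than OCK ko 1, which was slightly higher, and rose at least 8.71-fold. Cdh2 (N-cadherin) rose 5.03-fold and the ligand Tgfb2 at least 5.14-fold. Of 11 surface proteins used to follow reprogramming 3 rose and 2 fell (medians 0.17 and 0.43). Thy1, which is lost early when fibroblasts reprogram, had 10.13, 9.91 and 9.81, against 6.71, 8.05, 6.84, 6.87 and 7.26. Cd44, the hyaluronan receptor, had 12.25, 12.29 and 12.45, against 6.78, 9.86, 8.11, 7.87 and 8.73, and Icam1, which appears late in reprogramming, had 7.84, 8.08 and 7.64, against 9.61 to 10.43. Kit, the stem cell factor receptor, had 5.97, 5.77 and 5.65, against 11.43, 10.38, 10.12, 10.02 and 9.15.

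Hox genes, which hold positional identity in somatic cells and are repressed in pluripotent ones, rose in 7 of 16 cases and fell in 0. Another 8 of the 25 Hox genes on the array were at the floor on all 8 arrays. The medians were 0.71 for siTcf3 and 0.78 for siCtrl. By limma with no fold limit, 10 were called higher and 1 lower for siTcf3, and 10 and 0 for siCtrl. Over all genes 22.2% were called higher and 30.1% lower for siTcf3, and 20.0% and 25.0% for siCtrl. Hoxa9 had 11.14, 11.06 and 11.12 on the partial arrays, against 5.64, 5.64, 5.64, 5.64 and 5.71 on the established arrays, and rose at least 43.7-fold. Hoxa10 had 9.02, 9.13 and 9.04 in the partial clone and was at the floor in every established clone (at least 10.7-fold higher). Hoxd8 rose 5.67-fold. For each of these genes the 3 partial arrays, siCtrl included, lay close together.

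**Figure D5:**
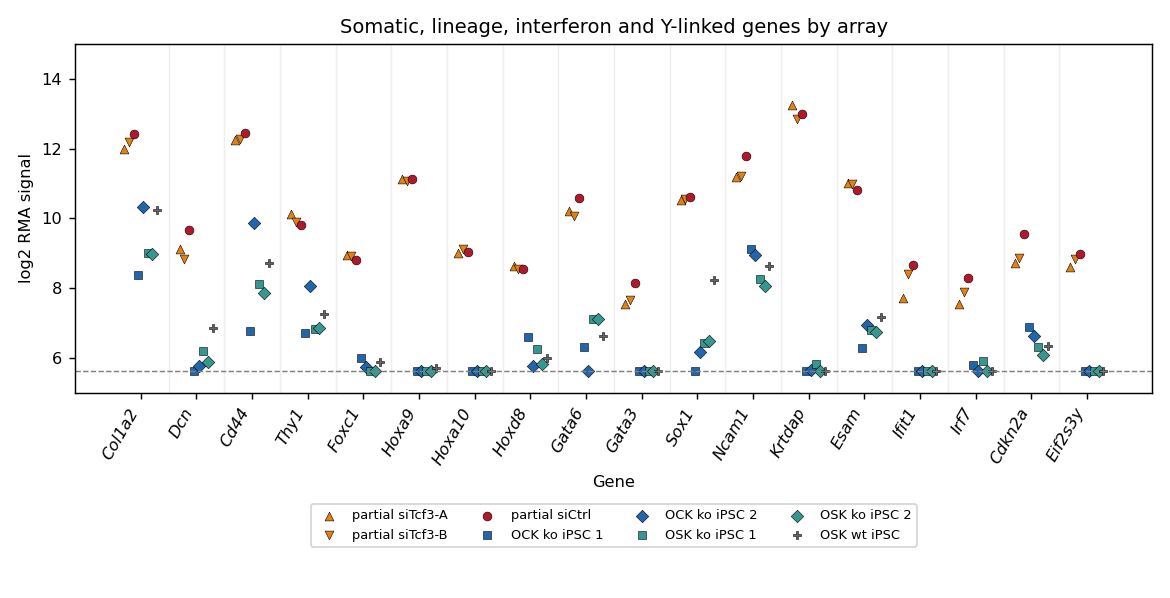
log2 RMA signal (vertical axis) of 18 somatic, lineage, interferon and Y-linked genes (horizontal axis) on each array, 1 point per array; the dashed line is the floor of 5.64. The genes were picked from those that rose, so all 3 partial arrays lie above all 5 established arrays for each by that choice. Members of the same lists that did not rise, such as Tubb3, Olig2 and Sox7, are not shown.

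In the lists of primitive endoderm and trophoblast the share of risen genes was near the 9.42% over all genes tested. In the primitive endoderm list 1 of 13 genes rose and 0 fell (medians -0.04 and 0.08). That gene was Gata6, with 10.20, 10.08 and 10.60 on the partial arrays, against 6.33, 5.64, 7.13, 7.11 and 6.63 on the established arrays, while the fellow marker Sox7 was at the floor on all partial arrays. In the trophoblast list 1 of 10 rose and 2 fell (medians -0.20 and -0.28). Gata3, a GATA factor of trophoblast and T cells, had 7.55, 7.67 and 8.15 and was at the floor in the established clones, and the trophoblast marker Tpbpa was at the floor on all 8 arrays.

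In the neural list 3 of 10 genes rose and 1 fell (medians 0.00 and 0.11). Sox1, a SoxB1 factor of the neural plate, had 10.54, 10.55 and 10.62, against 5.64, 6.17, 6.43, 6.48 and 8.23. Ncam1, a neural cell adhesion gene, rose 6.90-fold, while Olig2 was at the floor on all partial arrays. The neural gene that fell was Tubb3. Among 6 genes of the primed epiblast and mesoderm 1 rose and 1 fell (medians -0.12 and -0.27). Otx2, a factor of the primed epiblast, fell at least 6.88-fold and Mesp1, of cardiac mesoderm, rose 2.89-fold.

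In the endothelial list 2 of 5 genes rose and 1 fell (medians 0.07 and -0.16). Esam, an adhesion gene of endothelium and platelets, had 11.03, 10.98 and 10.82, against 6.29 to 7.18, although Cdh5 was at the floor throughout. In the keratinocyte list 2 of 8 rose and 1 fell (medians 0.37 and 0.50). The keratin Krt6a had 7.15, 6.75 and 8.26, against 5.64 to 5.99. Of 7 macrophage genes 0 rose and 1 fell (medians 0.08 and -0.14). Of 6 muscle genes 0 rose and 2 fell (medians -0.65 and -0.69), among them Mylpf, a fast muscle myosin light chain gene, at 7.96, 7.95 and 7.68 against 10.69 to 12.04.

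Interferon-stimulated genes, which respond to viral RNA and DNA, rose in 9 of 12 cases and fell in 0, with median differences of 1.63 for siTcf3 and 2.00 for siCtrl. By limma with no fold limit, 9 were called higher and 1 lower in each comparison. Over all genes 22.2% were called higher and 30.1% lower for siTcf3, and 20.0% and 25.0% for siCtrl. Ifit1, which binds foreign RNA ends, had 7.72, 8.40 and 8.66 on the partial arrays and was at the floor on all 5 established arrays (at least 6.12-fold higher, limma, adjusted p = 1.42e-05 for siTcf3 and 2.95e-05 for siCtrl). Irf7, the interferon regulatory factor, had 7.55, 7.88 and 8.28, against 5.64 to 5.91. Usp18, which removes ISG15 from proteins, was at least 4.92-fold higher. The labels give an siRNA for all partial arrays and for none of the established arrays, so an effect of siRNA on these genes cannot be told apart from the clone. The part of siRNA was not tested. In the OCK reprogramming cultures, which are mixed cells, Ifit1 had 7.46 to 13.09 over 10 arrays, given here with no test.

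Of 13 cell cycle genes 3 fell and 1 rose (medians -0.67 and -1.02). By the limma test alone, with no fold limit, 10 were called lower and 2 higher for siTcf3, and 9 lower and 2 higher for siCtrl, against 30.1% and 25.0% lower over all genes. Bub1, a spindle checkpoint kinase gene, had 10.91, 10.78 and 10.58, against 12.03 to 12.27, and Ccnd2, cyclin D2, had 12.38, 12.32 and 12.53, against 8.02, 10.24, 9.52, 9.46 and 10.13. In the list of the p53 and Ink4a pathways 2 of 10 rose and 1 fell (medians -0.09 and 0.19). Cdkn2a, the Ink4a/Arf locus that limits reprogramming, had 8.71, 8.87 and 9.55, against 6.90, 6.64, 6.33, 6.08 and 6.35. Cdkn1a (p21) rose 2.46-fold. The apoptosis gene Pmaip1 (Noxa) fell 6.20-fold.

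Metabolic genes moved both ways. Of 10 glycolysis genes 2 rose and 3 fell (medians -0.65 and -0.57). The glucose transporter gene Slc2a1 had 9.42, 9.36 and 9.66 on the partial arrays, against 11.95, 11.98, 11.75, 11.75 and 12.07 on the established arrays, and the hexokinase gene Hk1 rose 2.37-fold. Pfkp, a phosphofructokinase gene and the other member that rose, had 12.28, 12.11 and 12.66 by the probe set used, against 10.70 to 11.32 in the established clones. Another of its probe sets was lower in all 15 pairs, with 5.85, 6.39 and 5.68 against 6.94 to 8.34, and a further one overlapped. With the mean of its probe sets Pfkp differed by -0.10 for siTcf3 (limma, adjusted p = 0.79) and -0.26 for siCtrl (adjusted p = 0.609), so its rise rests on 1 probe set. Of 10 genes of amino acid and one-carbon metabolism 6 fell and 1 rose (medians -1.40 and -1.58). Gldc, the glycine decarboxylase, fell 10.4-fold and Psph, of serine synthesis, fell 4.20-fold. The member that rose was the transporter gene Slc38a5.

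The control siRNA array was also read on its own against the siTcf3 arrays. In 8 of all 17903 genes both siTcf3 arrays lay inside the range of the established clones while siCtrl lay at least 1 log2 unit outside it, in each case above. In 0 genes was siCtrl inside that range with both siTcf3 arrays 1 unit or more outside, and no p-value is attached to that count. The counts are not alike, since the first asks only 1 array to lie outside. The reverse asks both siTcf3 arrays to lie outside on the same side, which is harder to meet. The 6 farthest genes were Cstdc1 (7.63 in siCtrl), Pclo, Tnfrsf11b, Ckmt1, Zfpm2 and Csn1s1, and the other two were Elf5 and Krt6b. All but Ckmt1 and Krt6b were at the floor on the siTcf3 arrays and on all established arrays, and so were not tested for siTcf3 against established. Pclo, a presynaptic scaffold gene, had 7.05 in siCtrl, Tnfrsf11b (osteoprotegerin) 6.94, Zfpm2, a cofactor of GATA proteins, 6.85, and Csn1s1, a casein gene, 6.74. Ckmt1, a mitochondrial creatine kinase gene, had 7.09 and 6.46 with siTcf3 and 8.77 with siCtrl, against 6.40 to 7.53 in the established clones. A second probe set of Ckmt1 was also highest in siCtrl, at 8.31. The other probe sets of Pclo and Elf5 were at the floor on all 8 arrays, and that of Tnfrsf11b had 5.65 in siCtrl. Another of Zfpm2 had 6.34 in siCtrl, 6.12 and 6.22 with siTcf3 and 6.22 to 6.32 in the established clones. For Pclo, Elf5, Tnfrsf11b and Zfpm2 the siCtrl signal thus rests on 1 probe set.

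The direct test of siTcf3 against siCtrl passed for 7 of 12636 genes (0.0554%), all lower with siTcf3, and 0 of them were separated genes. These calls were not stable: limma made 0 calls without OCK ko 2, OSK ko 1, OSK ko 2, OSK wt or siTcf3-B, and without siTcf3-A it made 1, of another gene. At an unadjusted p under 0.05 there were 821 genes with all 8 arrays and 530 to 980 in those 5 fits with 0 calls. Marchf1, a ubiquitin ligase gene, had 5.88 and 6.49 with siTcf3 and 8.80 with siCtrl, against the floor in every established clone, a difference of -2.61 (limma, adjusted p = 0.0322). Runx1t1, a transcriptional corepressor gene, had 6.38 and 6.03 with siTcf3 and 8.05 with siCtrl. Zbtb32, a zinc finger repressor gene, had 7.56 and 7.59 with siTcf3 and 8.95 with siCtrl, against 8.04 to 8.24 in the established clones, which lay between. Cstdc1, Abca13, Cst12 and Reps2 were the others. For the pluripotency genes the siRNA made no difference that passed: siTcf3 minus siCtrl was 1.24 for Nanog (adjusted p = 0.433), 0.14 for Sox2 (adjusted p = 1.00), 0.87 for Nr0b1 (adjusted p = 0.62) and 0.15 for Esrrb (adjusted p = 1.00), with standard errors of 0.35, 0.16, 0.31 and 0.19.

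The OCK reprogramming cultures, 10 arrays of wt and ko cells on days 11 to 26, are mixed cells made with the same factors as the partial clone. Their levels are given beside those of the clones with no test. For the naive factors the cultures lay near the partial clone: Zfp42 had 5.64 to 7.37, Esrrb 5.64 to 7.37 and Nr5a2 5.64 to 6.80 over the 10 culture arrays. Nanog had 5.64 to 9.79 and Sox2 5.64 to 10.55, ranges that hold all 3 partial values and no established value.

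Several genes that rose in the partial clone were lower in the cultures than on any partial array. Hoxa9 had 8.39 to 10.61 in the cultures, Mbp 5.64 to 7.03, Aspa 6.80 to 8.34, Esam 6.10 to 8.05 and Gata6 6.42 to 8.20. Others were as high or higher there: Cd44 had 12.05 to 12.75, a range that holds its 3 partial values, while the matrix genes Lum and Dcn had 13.30 to 14.21 and 13.68 to 14.49, above the partial clone and the established clones alike. Cdkn2a, at 10.65 to 11.78 in the cultures, was also above both. Ccnb1ip1, at the floor in the partial clone, had 7.46 to 10.27 in the cultures.

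By chromosome, the 434 X-linked genes tested included 67 that fell (15.4%) and 28 that rose (6.45%). Chromosome 6, which carries Nanog and the Hoxa cluster, had 665 genes tested, of which 14.9% rose and 8.42% fell.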

How the data were processed

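The deposited table holds 1 log2 value per probe set and array, made by the authors with RMA, as the submitters' processing notes name it without a version. All deposited log2 values are at or above 5.64, a floor seen in the values and named by no label, and 44.9% to 46.6% of values per array equal it. Of 40508 probe sets, 31076 have 1 gene symbol in the platform annotation, 636 have several and 8796 are not listed and unnamed here. Entrez identifiers of 30878 were found in a RefSeq gene table (GRCm38.p6), and 0 symbols changed. There were 17903 genes, 7906 with more than 1 probe set, and each was represented by its brightest probe set on average over all 18 arrays. Between 12102 and 12345 genes per array were above the floor, 4332 were at the floor on all 8 arrays, and array medians were 5.85 to 5.94. The number of arrays limits the precision. The table holds 0 columns of other series.

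Groups came from the labels. One fit with limma 3.58.1 in R 4.3.3 used the 8 arrays with 3 group means (5 residual degrees of freedom). The variance prior (standard deviation 0.152, 2.85 degrees of freedom) was estimated from the 10808 genes above the floor on all 8 arrays, which also set the smallest variance allowed for genes with any floored value. P-values were adjusted by Benjamini-Hochberg over all genes tested, at a threshold of 0.05, and all p-values printed are such limma values. The code was tested on simulated data. Named genes were the 12 largest differences each way among separated genes (predicted genes left out), members of 32 gene lists, up to 6 genes each way with siCtrl outside and siTcf3 inside the established range or the reverse, all genes that passed siTcf3 against siCtrl, and Tcf7l1. The comparison, the lists and the variance model were chosen with earlier results of these data known. A few other genes (Elf5, Krt6b and those nearest the 2-fold limit) were named after their values were seen. Alternatives changed the variance prior, the probe sets averaged, the filter, the normalization, the groups in the fit, the established arrays used, the fold limit and the arrays left out.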

Additional observations from a re-analysis of the deposited data

Results flagged for a closer look

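The 5 established arrays were searched for a single array far from the other 4 (Dixon's test), for 128 of the genes named here. Some named genes, such as the markers Tek and Sox7, were not searched. By chance about 1 gene in 20 is marked. OSK wt was far above the rest for Tcf7l1 (10.68, others 9.37 to 9.56) and Gna14 (8.10, others 5.64 to 5.85), and far below for Nr5a2 (10.02, others 10.77 to 11.05) and Nodal (10.21, others 10.70 to 10.88). OCK ko 1 was far below the rest for L1td1 (11.89, others 12.48 to 12.52), Utf1 (9.49, others 10.53 to 10.76) and Myc (5.64, others 7.71 to 8.09), and far above for Klf4 (11.79, others 10.69 to 10.94) and Pim1 (11.72, others 10.60 to 10.87). OCK ko 2 was far above for Slc38a5 (6.80, others 5.64 to 5.78) and Avil (7.07, others 5.98 to 6.23), and far below for Bub1 (12.03, others 12.22 to 12.27). OSK ko 1 was highest for Krtdap (5.83) and OSK ko 2 for Sp5 (5.99), each within 0.35 log2 units of the floor. Where the other 4 arrays are all at the floor the test marks any value above it and says nothing about distance. That was so for OSK wt in Lum (5.99), Tgfb2 (6.02) and Hoxa9 (5.71), for OCK ko 1 in Mbp (6.25), for OCK ko 2 in Sptssb (8.06), Gcnt3 (7.07) and Krt6b (7.93), and for OSK ko 2 in Runx1t1 (5.65). In each of these genes except Tcf7l1 and Krt6b the partial clone was separated or, for Sp5, L1td1 and Runx1t1, higher in all 15 pairs.

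The partial arrays with siTcf3 and with siCtrl differed from each other in 7 genes by limma, with siTcf3 minus siCtrl of -1.75 for Abca13 (adjusted p = 0.0373), -1.66 for Cst12 (0.0399), -1.99 for Cstdc1 (0.0322), -2.61 for Marchf1 (0.0322), -1.71 for Reps2 (0.0373), -1.85 for Runx1t1 (0.0322) and -1.38 for Zbtb32 (0.0322). Each rests on a single siCtrl array and was lost when any of several arrays was left out.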

How the results depend on the processing

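The count of 2619 separated genes became 889 with a 4-fold limit and 5586 with no fold limit, as those limits are built to do. Without 1 array at a time it was 2464 to 2671, the siCtrl calls were 5469 to 6520 and the siTcf3 calls 4980 to 7409, the fewest without siTcf3-B. With the partial clone counted as 1 sample there were 2761 separated genes, 2513 of them shared with the 2619. Against the OCK ko arrays alone there were 2782 (2350 shared). Median centring moved the share of siTcf3 calls that were higher to 52.3%, against 42.4% before. The 7 calls of siTcf3 against siCtrl, whose alternatives were added after the data were seen, became 286 with the plain limma prior over all genes, 14 with 5 groups, 11 with the OSK arrays alone, 4 with median centring and 0 with genes above the floor on all arrays or with the OCK ko or the ko arrays alone, and 0 to 7 without 1 array. Of 3622 values of 128 named genes under alternatives, 3568 kept direction and call, 31 lost the call, 13 gained it and 10 changed sign. The sign changed for Klf4 with the mean of its probe sets (-1.20 and -0.74) and for Pfkp likewise (-0.10 and -0.26). It changed for Cdh1 for siTcf3 (-0.019 against OSK arrays, -0.0063 without OCK ko 2 and -0.038 without siTcf3-A). It also changed for Meg3 against OCK ko arrays (0.83 and 0.48) and for Ckmt1 for siTcf3 (0.078 without siTcf3-B). Cdh1 without siTcf3-B (0.12) and Ckmt1 without siTcf3-A (-0.56) kept their sign. Apart from Klf4 and Pfkp, whose probe sets disagree, the cause was not tested. The siCtrl calls of Mycn, Myc, Axin2, Cdh2, Lox, Slc2a3, Klf4, Ckmt1 and Krt6b were lost with the plain limma prior over all genes (adjusted p 0.0502 to 0.103). Folds against a group with floored values are only lower bounds. No paired analysis was possible because the partial arrays carry no clone number and equal numbers in the OCK ko and OSK ko clones name different clones.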
